A study of Mus musculus with 54 samples.

Results

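Wnt ligands bind Frizzled receptors together with an LRP co-receptor at the cell surface, which keeps beta-catenin from being broken down and lets it enter the nucleus, where it drives transcription with factors of the TCF/LEF family. Axin2 and Nkd1 are transcribed in answer to the signal and dampen it in turn. In skeletal muscle the pathway is known for its part in the commitment and fusion of myogenic progenitors, and emerin, a protein of the inner nuclear membrane, is known to bind beta-catenin.

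The genes described here are 10 members of this pathway among the 19653 genes listed: the receptor Fzd7, the co-receptor Lrp6, the secreted inhibitor Sfrp2, the feedback inhibitors Nkd1 and Axin2, beta-catenin itself (Ctnnb1) and the 4 nuclear factors Tcf7, Lef1, Tcf7l1 and Tcf7l2. They were named by symbol, by a rule that holds no measured value but was set with earlier results of these data known, and matched by NCBI gene number. Each was listed in all 27 tables, 15 of a line with wildtype and 12 between days.

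RNA was sequenced from H2K myogenic progenitors, mouse muscle precursor cells that proliferate under gamma-interferon and form myotubes in differentiation medium. There were 6 lines: wildtype; EMD-/y, from mice without emerin; and EMD-/y cells transduced with lentivirus carrying wildtype emerin (+EMD) or emerin with the S54F, Δ95–99 or Q133H change, forms that cause Emery–Dreifuss muscular dystrophy. Each line was sampled at 0, 24 and 48 h of differentiation (days 0, 1 and 2), with 3 labelled replicates per group, 54 samples in 18 groups. The 4 transduced lines were selected and kept in puromycin, which wildtype and EMD-/y were not, so against either of these the form of emerin cannot be told apart from the transduction; a line with empty vector was not analysed here. The puromycin dose differed among the transduced lines, the mutant lines were plated more densely than wildtype and EMD-/y, and the paper found more emerin protein in Q133H than in wildtype. Each form was carried by its own line, so form and line cannot be told apart either.

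Whole read counts per gene and library were recovered from the deposited group values (15875712 to 19439721 reads of recovered genes per library). They are given as counts per 1000000 of these reads (CPM). Acta1, Eef1a1 and Myh3 were among the 4 genes not recovered, so their reads are missing from the library totals. The 3 libraries of a group are called a, b and c; the letters carry no replicate number and pair nothing. In 16 of the 18 groups 2 of the 3 libraries lay much closer to each other than to the third, though in none as close as sampling noise, so all 3 were counted. The methods name 3 technical replicates of each of 2 biological replicates without saying which library is which, and p-values may therefore measure technical spread. Emd, the deleted gene, was at 56.5 to 117 CPM in the wildtype libraries and at most 0.167 CPM elsewhere, with 32 of 45 libraries at 0. It was this low in the transduced lines too, so the level of the introduced emerin cannot be read from it. The progenitor markers Myod1, Des, Cdh15 and Myf5 were present in all 18 groups, whereas Pax7, 2.81 to 122 CPM in the group means of the other lines, was at 0.133 to 0.485 CPM in Q133H. Myf5 ran from 7.26 CPM in wildtype on day 2 to 88.3 in Δ95–99 on day 1. Of the fibro-adipogenic markers, Ly6a ran from 15.3 CPM in wildtype on day 2 to 276 in wildtype on day 0. Pdgfra was at most 4.15 CPM in the group means.

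A gene was called higher or lower where limma gave a Benjamini–Hochberg adjusted p below 0.05, adjusted over all genes tested, and the difference was at least 2-fold. Differences are on the log2(normalized count + 1) scale, with the standard error (SE) over 3 against 3 libraries, and they understate the change of genes with few reads. Normalized counts are divided by size factors, whereas CPM is scaled by library totals, so the 2 can diverge. For example, Lrp6 in S54F went from 71.9 to 70.6 CPM from day 1 to day 2, while its log2 difference was 0.22. Statements that libraries lay above, below or overlapped others are of CPM. A gene was tested only where the higher of its 2 group means reached 10 normalized counts. Nkd1, Axin2 and Sfrp2, and some of the other pathway genes named below, passed this filter in some comparisons only through the group in which they were high. Such calls were not taken out of the counts and percentages given below. These counts are therefore descriptions, and no conclusion about the members is drawn from them. All lines were compared with the same 3 wildtype libraries of a day.

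Per kilobase of transcript, Ctnnb1 was the most abundant member, with a median of 200 CPM per kilobase over the 18 groups. Tcf7l1 followed at 19.5, Fzd7 at 11.4, Lrp6 at 8.15, Tcf7l2 at 7.26, Tcf7 at 7.05 and Lef1 at 5.27 CPM per kilobase. Sfrp2 at 1.94, Axin2 at 0.356 and Nkd1 at 0.197 were the scarcest, and only Nkd1 was at 0 in any library, in 3 of 54.

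**Figure D1:**
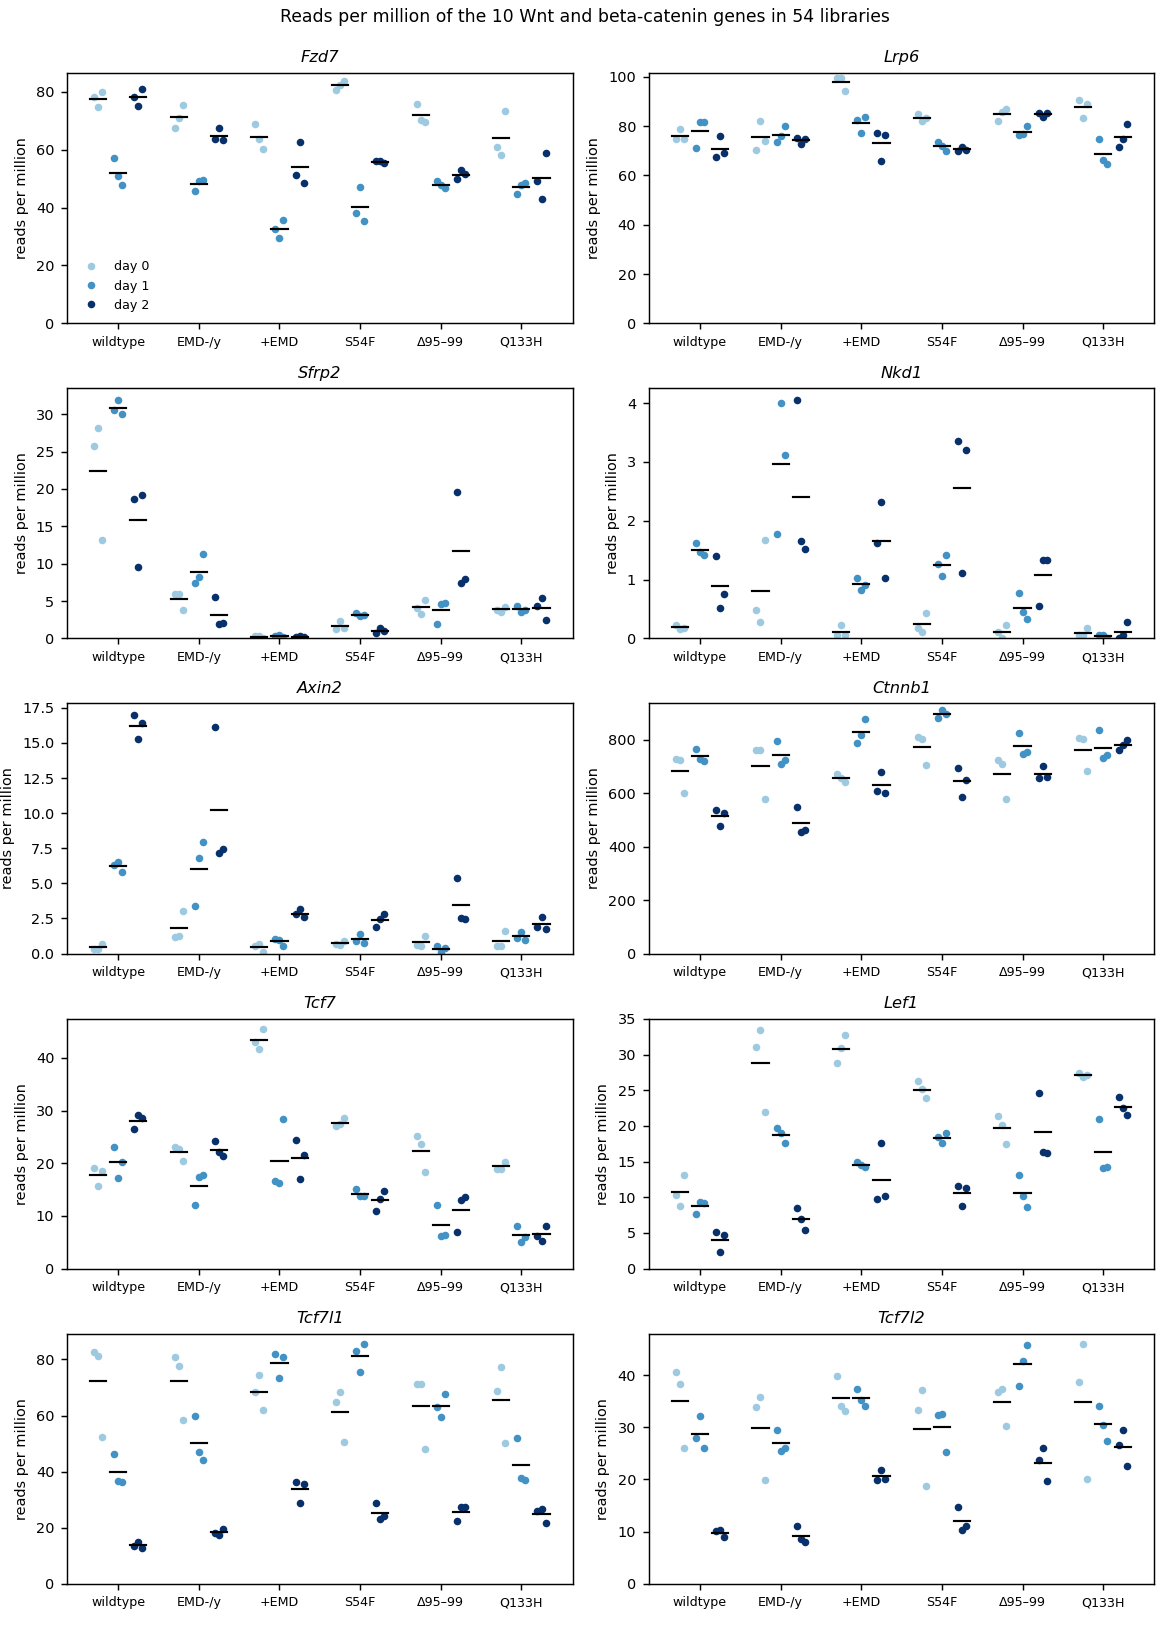
Level of each of the 10 genes in every library (points, CPM on a linear axis from 0, a scale for each gene) by line and day, with a bar at the mean of the 3 libraries of a group. Axin2 climbs to between 15.3 and 17.0 CPM in wildtype on day 2, where the 4 transduced lines stay between 1.78 and 5.35, and Ctnnb1 stays between 455 and 914 CPM throughout.

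The lines were first compared with wildtype on the same day, which asks how the absence or change of emerin goes with the level of each member. Sfrp2 was lower in 14 of 15 comparisons, Axin2 was lower in all 4 transduced lines on days 1 and 2, and Lef1 was higher in 10 of 15. Tcf7 was lower in Δ95–99 and Q133H on days 1 and 2 and in S54F on day 2. Ctnnb1, Fzd7 and Lrp6 were called in none of their 15 comparisons.

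On day 0, 3 of 10 members were called in EMD-/y, where 6.4% of all genes were. Among the transduced lines it was 3 of 8 tested with +EMD (15.9% of all genes), 2 of 9 with S54F (10.1%), 1 of 9 with Δ95–99 (11.2%) and 2 of 9 with Q133H (12.9%). On day 1, with 10 members tested in each line, 2 were called in EMD-/y (5.69% of all genes), 2 in +EMD (19.2%), 4 in S54F (11.8%), 4 in Δ95–99 (20.4%) and 4 in Q133H (23.5%). On day 2 the count was 1 in EMD-/y (7.08%), 5 in +EMD (18.3%), 4 in S54F (10.8%), 4 in Δ95–99 (22.2%) and 6 in Q133H (32.5%). Over the 15 comparisons 47 of 145 tested were called, 32.4% against 15.2% of all genes, 17 of them higher and 30 lower. Of the 47, 41 were called with every library left out in turn, and 38 when the closest pair of libraries in each group was averaged and counted as 1.

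**Figure D2:**
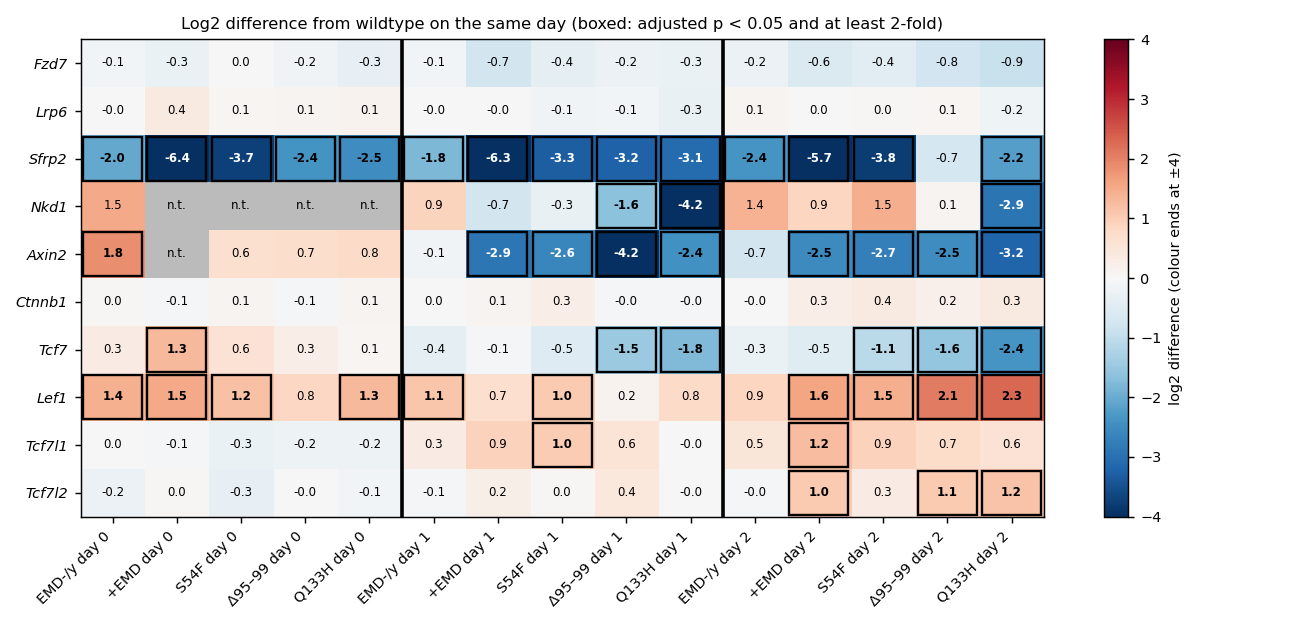
Log2 difference of each line from wildtype on the same day for the 10 genes (rows) in the 15 comparisons (columns), coloured from blue (lower in the line) to red (higher). Boxes mark calls, n.t. marks genes not tested, and the colour ends at ±4; the Sfrp2 row is boxed in 14 columns and the Ctnnb1, Fzd7 and Lrp6 rows in none.

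The receptor Fzd7 (chr1:59482147-59486955, GRCm38.p6) lay between 29.4 and 83.7 CPM over all libraries. On day 2 it was 78.3, 75.2 and 80.9 CPM in wildtype, against 49.2, 43.0 and 58.8 in Q133H and 49.7, 53.0 and 51.5 in Δ95–99. All libraries of these lines lay below all wildtype libraries, yet the differences were under 2-fold, at -0.91 (SE 0.14, adjusted p = 0.00199) and -0.78 (SE 0.06, adjusted p = 2.93e-05). The same order held on day 2 in EMD-/y (63.8, 67.3 and 63.2 CPM), S54F (56.2, 56.0 and 55.4) and +EMD (51.1, 62.5 and 48.4). On day 0 the differences of the 5 lines ran from -0.34 to 0.03.

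The co-receptor Lrp6 (chr6:134446476-134566913) was the steadiest member, between 64.8 and 99.7 CPM in all 54 libraries. Its largest difference from wildtype was 0.36 (SE 0.06, adjusted p = 0.00297) in +EMD on day 0, with 99.4, 99.7 and 94.4 CPM against 74.8, 78.9 and 75.0. On day 2 the interval of ±2 SE around the difference lay within -0.36 to 0.24 in every line.

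Sfrp2 (chr3:83765750-83774314), a secreted Frizzled-like protein that binds Wnts outside the cell, was the member most often lower than in wildtype. In wildtype it was at 25.7, 28.2 and 13.2 CPM on day 0, 30.6, 31.9 and 30 on day 1 and 18.6, 9.49 and 19.2 on day 2. In +EMD it was at 0.333, 0.342 and 0.0578 CPM on day 0, 0.381, 0.491 and 0.225 on day 1 and 0.225, 0.291 and 0.229 on day 2, from 1 to 9 reads per library. No +EMD library came near the lowest wildtype library, and the differences were -6.35 (SE 0.54, adjusted p = 0.000176), -6.31 (SE 0.25, adjusted p = 9.09e-06) and -5.67 (SE 0.30, adjusted p = 6.64e-06).

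Sfrp2 in EMD-/y was at 5.88, 5.95 and 3.79 CPM on day 0, 7.37, 8.19 and 11.2 on day 1 and 5.57, 1.88 and 2.02 on day 2. S54F lay lower, at 1.32, 2.37 and 1.35, then 3.35, 2.93 and 3.16, then 0.739, 1.39 and 1.01 CPM. Every library of both lines was below the lowest wildtype library of its day, and the differences from wildtype were -2.04, -1.80 and -2.37 in EMD-/y and -3.72, -3.30 and -3.78 in S54F, with adjusted p from 2.15e-06 to 0.00957. With the closest pair averaged, the EMD-/y differences of day 0 and day 2 were no longer called (adjusted p = 0.122 and 0.132).

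Q133H held Sfrp2 at 3.86, 3.59 and 4.16 CPM on day 0, 4.40, 3.56 and 3.75 on day 1 and 4.33, 5.34 and 2.51 on day 2, all below wildtype (differences -2.50, -3.08 and -2.20, adjusted p from 4.69e-06 to 0.00232). Δ95–99 was at 4.09, 3.28 and 5.10 CPM on day 0 and 1.95, 4.57 and 4.76 on day 1, differences of -2.40 and -3.23 (adjusted p = 0.00194 and 0.000264). Δ95–99 on day 2 was the exception: library a was at 19.6 CPM, above all wildtype libraries, while b and c were at 7.40 and 7.93, and the difference was -0.69 (SE 0.41, adjusted p = 0.179). Of the 2153 exon bases annotated for Sfrp2, 347 overlap an antisense gene, and since no strand was stated for the counting, reads of these genes cannot be told apart there.

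Nkd1 (chr8:88521342-88594887) encodes a protein that binds Dishevelled and dampens the signal. It was tested against wildtype in 11 of 15 comparisons. In wildtype its libraries were at 0.221, 0.166 and 0.172 CPM on day 0, 1.63, 1.46 and 1.41 on day 1 and 1.40, 0.518 and 0.755 on day 2. In Q133H they were at 0.0552, 0.0569 and 0.176, then 0.0518, 0.0540 and 0, then 0, 0.0556 and 0.279 CPM. Nkd1 thus stayed at 0 to 5 reads per library in Q133H on all days. On day 1 the 3 Q133H libraries held 2 reads in all against 78 in wildtype. Scaled by library totals this is a ratio of 42.1, with an exact 95% counting interval from 11.3 to 353. That interval covers the sampling of reads only, not the spread between libraries, and was computed because the comparison had been called. Over the libraries limma gave -4.23 (SE 0.42, adjusted p = 0.000198). On day 2 the difference was -2.93 (SE 0.73, adjusted p = 0.0121), which with the closest pair averaged was not called (adjusted p = 0.0878).

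In Δ95–99 Nkd1 was lower on day 1, at 0.772, 0.441 and 0.332 CPM (-1.63, SE 0.34, adjusted p = 0.0061, or 0.0569 with the closest pair averaged). In EMD-/y it was at 0.490, 0.278 and 1.67 CPM on day 0, 1.77, 4.01 and 3.12 on day 1 and 4.05, 1.65 and 1.51 on day 2. All 3 EMD-/y libraries lay above all wildtype libraries on each day, but the differences of 1.51, 0.88 and 1.38 did not pass the test (adjusted p = 0.184, 0.12 and 0.0761). The window from 250 bases before to 50 bases after an inner Nkd1 start in RefSeq (GRCm38.p6) holds CAGCTG, an E-box of the kind that myogenic factors bind, at 64 and at 13 bases before that start. It is shown because Nkd1 rose on the first day of differentiation; the stretch lies inside the gene, outside the exons of the annotation, and capitals mark the E-boxes.
Nkd1, chr8:88527539-88527632, plus strand: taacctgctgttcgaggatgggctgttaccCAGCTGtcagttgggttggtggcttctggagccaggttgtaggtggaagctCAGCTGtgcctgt
CAGCTG, which reads the same on both strands, is found in 16.3% of 32851 RefSeq promoter windows of this length, and in 3 of the 15 windows of the 9 members that matched (those of Nkd1, Tcf7 and Lef1). Lrp6 had no window.

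Axin2 (chr11:108917828-108950783), a scaffold of the complex that breaks beta-catenin down and a widely used read-out of the signal, was at 0.331, 0.332 and 0.690 CPM in wildtype on day 0, 6.28, 6.5 and 5.82 on day 1 and 17.0, 15.3 and 16.4 on day 2. In EMD-/y it was at 1.2, 1.28 and 3.01, then 3.37, 6.80 and 7.94, then 16.1, 7.17 and 7.43 CPM. On days 1 and 2 the EMD-/y and wildtype libraries overlapped, and the differences were -0.13 (SE 0.32, adjusted p = 0.839) and -0.72 (SE 0.28, adjusted p = 0.108). On day 0 EMD-/y was higher by 1.85 (SE 0.49, adjusted p = 0.0499), a call that was lost without wildtype library a or b or any of the 3 EMD-/y libraries (1.42 to 2.09, adjusted p from 0.0731 to 0.163) and with the closest pair averaged (adjusted p = 0.271).

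In the 4 transduced lines Axin2 stayed low. In +EMD it was at 0.554, 0.684 and 0.116 CPM on day 0, 1.03, 0.982 and 0.563 on day 1 and 2.81, 3.14 and 2.57 on day 2. In S54F it was at 0.689, 0.636 and 0.857, then 0.891, 1.39 and 0.762, then 1.88, 2.44 and 2.82 CPM. On days 1 and 2 none of these libraries reached the lowest wildtype or EMD-/y library. Δ95–99 was at 0.599, 0.566 and 1.25 CPM on day 0, 0.566, 0.110 and 0.387 on day 1 and 5.35, 2.51 and 2.46 on day 2. Q133H was at 0.552, 0.569 and 1.58, then 1.14, 1.57 and 0.937, then 1.91, 2.62 and 1.78 CPM. On day 0, by contrast, the libraries of S54F, Δ95–99 and Q133H overlapped those of wildtype (differences of 0.64, 0.71 and 0.77, adjusted p from 0.275 to 0.297), and +EMD was not tested.

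On day 1 Axin2 was lower than in wildtype by -2.88 (SE 0.26, adjusted p = 0.000152) in +EMD, -2.62 (SE 0.24, adjusted p = 0.000297) in S54F, -4.23 (SE 0.47, adjusted p = 0.00037) in Δ95–99 and -2.44 (SE 0.22, adjusted p = 0.000142) in Q133H. On day 2 the differences were -2.53, -2.73, -2.49 and -3.19, with adjusted p from 4.38e-06 to 0.000223, which is 5.62-fold to 9.12-fold lower. All 8 calls held with each library left out in turn and with the closest pair averaged. Whether EMD-/y differed from the transduced lines was not tested in a model. Of the 5506 annotated exon bases of Axin2, 209 overlap an antisense gene.

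The sum of differentiation markers moved with part of this pattern, while single markers differed. The summed level of 7 of 9 listed markers (Myog, Mymk, Mymx, Myh8, Ckm, Tnnt3 and Mef2c; Myh3 and Acta1 had no recovered counts) was 12654 to 13559 CPM in the wildtype libraries on day 2, 8348 to 9053 in +EMD, 4933 to 6855 in Δ95–99 and 963 to 4762 in Q133H. In EMD-/y it was 11223 to 13640 and in S54F 11533 to 12754 CPM, where 1 of the 3 S54F libraries lay within the wildtype range. On day 1 it was 4155 to 5260 CPM in wildtype and 3513 to 4158 in S54F. By group means on day 2, Mymk, Myh8, Ckm, Tnnt3 and Mef2c were lower than wildtype in +EMD and Δ95–99. Myog was at 2622 and 2466 CPM in these lines against 2728 in wildtype. Mymx was at 61.0 CPM in wildtype, 78.5 in EMD-/y, 117 in +EMD, 125 in S54F, 74.3 in Δ95–99 and 15.1 in Q133H. The summed level of the proliferation markers Mki67, Top2a, Ccnb1 and Cdk1 on day 2 was 23.8 to 34.6 CPM in wildtype, 66.8 to 80.9 in EMD-/y and 61.8 to 89.7 in S54F, but 403 to 466 in +EMD, 336 to 506 in Δ95–99 and 93.7 to 378 in Q133H. None of these 11 markers was at 0 in the group means. In these bulk samples fewer cells that express a gene and less RNA per cell cannot be told apart, and the part of the differentiation state in the member differences was not tested.

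Ctnnb1 (chr9:120933400-120960507), the gene of beta-catenin, was abundant and was called in no comparison. On day 2 it was at 539, 476 and 525 CPM in wildtype and at 550, 455 and 462 in EMD-/y, a difference of -0.03 (SE 0.08, interval of ±2 SE from -0.18 to 0.12, adjusted p = 0.829). In Q133H it was at 763, 780 and 801 and in S54F at 696, 586 and 651 CPM, all above wildtype, with differences of 0.35 (SE 0.10, adjusted p = 0.018) and 0.36 (SE 0.07, adjusted p = 0.00549) that were under 2-fold. The day 2 means of Δ95–99 and +EMD, 673 and 631 CPM, were also above the wildtype mean of 513 CPM. These values are of the transcript and say nothing of the protein or of where it is in the cell. A coding gene on the opposite strand, Ulk4, overlaps 759 of its 5192 exon bases.

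Tcf7 (chr11:52246527-52283383), which encodes TCF1, was at 19.1, 15.6 and 18.6 CPM in wildtype on day 0, 23.2, 17.2 and 20.2 on day 1 and 26.5, 29.1 and 28.7 on day 2. Q133H started at 18.9, 19.0 and 20.3 CPM but was at 8.02, 5.02 and 6.06 on day 1 and 6.29, 5.34 and 8.13 on day 2. Δ95–99 was at 25.1, 23.6 and 18.3, then 12, 6.12 and 6.42, then 6.93, 13 and 13.6 CPM. On days 1 and 2 all libraries of both lines lay below all wildtype libraries. The differences were -1.78 (SE 0.19, adjusted p = 0.000314) and -2.36 (SE 0.19, adjusted p = 0.000199) in Q133H and -1.47 (SE 0.26, adjusted p = 0.00289) and -1.56 (SE 0.24, adjusted p = 0.000954) in Δ95–99.

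S54F held Tcf7 at 27.1, 27.4 and 28.5 CPM on day 0, 15.1, 13.7 and 13.7 on day 1 and 11, 13.1 and 14.8 on day 2. It was lower than wildtype on day 2 (-1.08, SE 0.12, adjusted p = 0.000514), a difference just past 2-fold that was -0.96 without S54F library a. +EMD was higher on day 0, at 43.0, 41.8 and 45.5 CPM (1.29, SE 0.10, adjusted p = 0.000135), and not called on day 1 (16.6, 16.2 and 28.4 CPM, -0.09) or day 2 (24.5, 17.1 and 21.6 CPM, -0.47). EMD-/y was at 23.2, 22.7 and 20.4, then 12, 17.4 and 17.9, then 24.2, 22.1 and 21.4 CPM, and its differences of 0.32, -0.36 and -0.27 were not called.

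Lef1 (chr3:131110297-131224357), the other nuclear partner that is itself a common target of the signal, was at 10.3, 8.79 and 13.2 CPM in wildtype on day 0, 7.62, 9.37 and 9.18 on day 1 and 5.19, 2.36 and 4.64 on day 2. On day 0 EMD-/y was at 31.0, 33.5 and 22.0, +EMD at 28.9, 30.9 and 32.7, and S54F at 26.2, 25.1 and 23.9 CPM. Δ95–99 was at 21.4, 20.1 and 17.5 and Q133H at 27.4, 26.9 and 27.2 CPM. All 15 libraries of the lines lay above all wildtype libraries on that day. The differences were 1.42 (SE 0.20, adjusted p = 0.00603), 1.53 (SE 0.16, adjusted p = 0.00038), 1.18 (SE 0.15, adjusted p = 0.00298) and 1.3 (SE 0.15, adjusted p = 0.00137) in EMD-/y, +EMD, S54F and Q133H, while 0.84 in Δ95–99 was under 2-fold. With the closest pair averaged, EMD-/y and S54F were not called (adjusted p = 0.118 and 0.0632).

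On day 1 Lef1 was higher in EMD-/y (19.7, 19.0 and 17.6 CPM; 1.11, SE 0.12, adjusted p = 0.00211) and S54F (18.4, 17.6 and 19.1 CPM; 1.05, SE 0.11, adjusted p = 0.000591). The S54F call was lost without wildtype library a (0.94), and with the closest pair averaged the adjusted p in EMD-/y was 0.0599. On day 2 Lef1 was at 9.72, 17.5 and 10.2 CPM in +EMD, 11.6, 8.76 and 11.3 in S54F, 24.7, 16.4 and 16.2 in Δ95–99 and 24.0, 22.5 and 21.5 in Q133H. Every Q133H library of day 2 lay above every wildtype library of day 0, while the wildtype libraries of day 2 all lay below those of day 0. The differences from wildtype were 1.59 (SE 0.33), 1.47 (SE 0.28), 2.09 (SE 0.31) and 2.28 (SE 0.29) in that order, with adjusted p from 0.000733 to 0.00563, and 0.87 (SE 0.31, adjusted p = 0.0834) in EMD-/y, which was at 8.57, 6.89 and 5.48 CPM. Without the libraries that stand apart the +EMD difference was 0.99.

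Of the 15 promoter windows, 1 holds CTTTGA, searched on both strands, the core that TCF/LEF factors bind. This match is found in 16% of all windows. It belongs to an inner start of Lef1 and holds the match at 180 and at 120 bases before it, and the stretch lies in an intron of the gene. It is shown because Lef1 is at once a TCF/LEF factor and a common target of the pathway; capitals mark the matches, both on the reverse strand and so read here as TCAAAG, which are descriptions of the letters and not binding sites.
Lef1, chr3:131156084-131156189, plus strand: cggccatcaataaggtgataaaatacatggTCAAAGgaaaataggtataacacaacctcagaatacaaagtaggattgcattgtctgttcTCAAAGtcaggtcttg
An antisense gene overlaps 1208 of the 8788 annotated exon bases of Lef1.

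Tcf7l1 (chr6:72626371-72789045), which encodes TCF3, most often a repressor, was at 82.8, 81.3 and 52.4 CPM in wildtype on day 0, 46.4, 36.7 and 36.5 on day 1 and 13.3, 15 and 12.9 on day 2. On day 2 it was at 36.5, 28.8 and 35.6 CPM in +EMD, higher by 1.24 (SE 0.12, adjusted p = 0.0001). The other 4 lines lay above wildtype in every library of that day as well, by 0.47 to 0.91, under 2-fold with adjusted p from 0.000507 to 0.0141. On day 1 S54F was higher, at 83.0, 75.3 and 85.5 CPM (1.01, SE 0.10, adjusted p = 0.000465), a call at the 2-fold limit that was lost without wildtype library b or c or S54F library a or c (0.95 to 0.99) and with the closest pair averaged (0.93). An antisense gene overlaps 179 of the 3924 exon bases of Tcf7l1.

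Tcf7l2 (chr19:55741797-55933659), which encodes TCF4, was at 40.5, 38.4 and 26.0 CPM in wildtype on day 0, 28.0, 32.2 and 26.1 on day 1 and 10.2, 10.2 and 8.88 on day 2. On day 2 it was at 19.9, 21.8 and 20.0 CPM in +EMD, 23.8, 26.0 and 19.7 in Δ95–99 and 26.5, 29.5 and 22.6 in Q133H, all above all wildtype libraries. The differences were 1.03 (SE 0.09, adjusted p = 7.71e-05), 1.06 (SE 0.13, adjusted p = 0.000249) and 1.16 (SE 0.12, adjusted p = 0.000386). The first was lost without wildtype library c (0.97) or +EMD library b (1.00, just under the limit), and the second without wildtype library c (0.99) or Δ95–99 library b (0.98). EMD-/y, at 11.1, 8.60 and 7.94 CPM, overlapped wildtype.

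The 4 nuclear factors compete for the same partner, so their mix was compared per kilobase of transcript. In wildtype Tcf7 made up 14.9% ± 3.46 (SD, n = 3) of their summed level on day 0, 23.3% ± 2.30 on day 1 and 54.3% ± 2.02 on day 2. In EMD-/y its share on day 2 was 42.6% ± 0.587, in +EMD 26.6% ± 3.61, in S54F 23.7% ± 4.44, in Δ95–99 16.2% ± 5.09 and in Q133H 9.79% ± 2.78. The wildtype shares of that day, 52.0% to 55.8%, lay above every library of the other 5 lines. Lef1 made up 6.72% ± 2.58 in wildtype on day 2 and 28.4% ± 1.12 in Q133H, and Tcf7l1 26.1% ± 1.66 and 35.6% ± 1.74. The summed level fell in wildtype from 43.4 ± 7.13 CPM per kilobase on day 0 to 18.4 ± 0.353 on day 2, so a larger share of Tcf7 in part reflects less of the others.

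**Figure D3:**
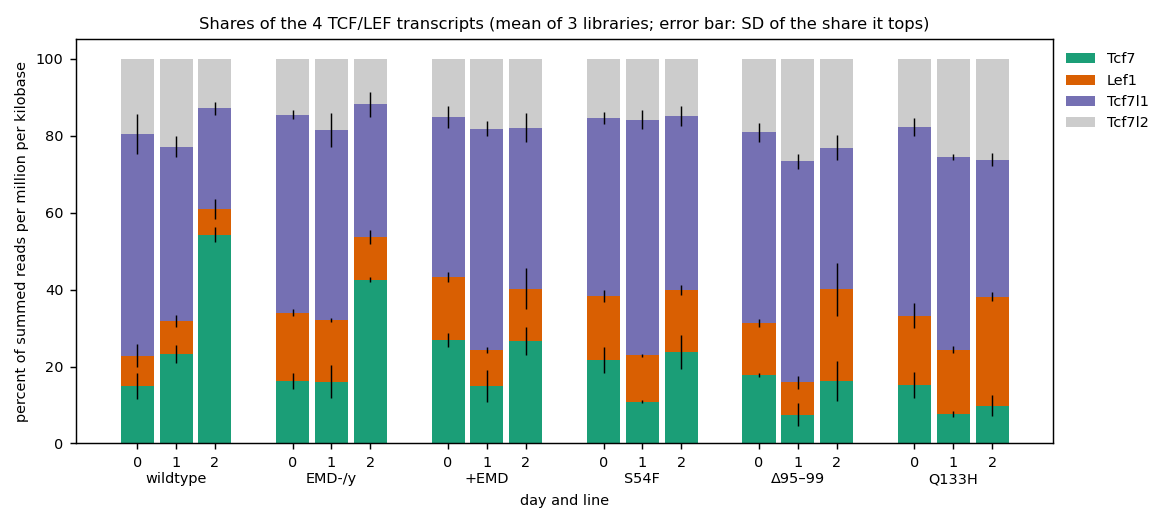
Share of Tcf7, Lef1, Tcf7l1 and Tcf7l2 in their summed CPM per kilobase (stacked bars, percent, mean of 3 libraries, error bar the SD of the share it tops) by line and day. Tcf7 takes 54.3% in wildtype on day 2 and 9.79% in Q133H.

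The days were then compared within each line, which asks how each member moved during differentiation. From day 0 to day 1, 2 of 10 members were called in wildtype, where 22.4% of all genes were, and 2 of 10 in EMD-/y (20.4%). The count was 4 of 9 tested in +EMD (17.1%), 2 of 10 in S54F (15.9%), 1 of 9 in Δ95–99 (13.8%) and 1 of 9 in Q133H (10%). From day 1 to day 2 it was 3 of 10 in wildtype (19.8%), 4 of 10 in EMD-/y (18.5%), 2 of 9 in +EMD (20.8%), 5 of 10 in S54F (20.8%), 3 of 10 in Δ95–99 (14.2%) and 0 of 9 in Q133H (8.24%). In all, 29 of 115 were called (25.2%, against 16.9% of all genes), 12 higher and 17 lower. Of these, 21 were called with every library left out in turn and 22 with the closest pair averaged.

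Axin2 and Nkd1 rose together on the first day in wildtype and EMD-/y. Axin2 rose by 3.71 (SE 0.31, adjusted p = 0.000141) in wildtype, 13.1-fold, and by 1.73 (SE 0.47, adjusted p = 0.0188) in EMD-/y. Nkd1 rose by 2.69 (SE 0.32, adjusted p = 0.000498) and 2.08 (SE 0.65, adjusted p = 0.0318). Both EMD-/y calls were lost without library a or b of day 0 or library b or c of day 1 (adjusted p from 0.0647 to 0.102). Nkd1 also rose in +EMD (2.61, SE 0.55, adjusted p = 0.00512) and S54F (2.30, SE 0.47, adjusted p = 0.00612, or 0.0609 with the closest pair averaged), where the change of Axin2 was 1.00 (SE 0.62, adjusted p = 0.2) and 0.44 (SE 0.33, adjusted p = 0.286). In Δ95–99 and Q133H Nkd1 was too low to be tested.

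On the second day Axin2 rose again in wildtype (1.55, SE 0.10, adjusted p = 2.96e-05), +EMD (1.91, SE 0.28, adjusted p = 0.000693), S54F (1.44, SE 0.30, adjusted p = 0.0027) and Δ95–99 (3.30, SE 0.55, adjusted p = 0.00193). In EMD-/y the change was 0.95 (adjusted p = 0.0813) and in Q133H 0.78 (adjusted p = 0.0922). Nkd1 rose in S54F by 1.09 (SE 0.41, adjusted p = 0.041), which was lost without any library of day 1 or without library a or c of day 2 (0.84 to 1.19, adjusted p from 0.0742 to 0.146).

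Tcf7 fell on the first day in +EMD (-1.20, SE 0.20, adjusted p = 0.00185), Δ95–99 (-1.53, SE 0.25, adjusted p = 0.00235) and Q133H (-1.62, SE 0.18, adjusted p = 0.00113), while its change in wildtype was 0.19 (SE 0.14, adjusted p = 0.279). Lef1 fell on the first day in +EMD (-1.14, SE 0.09, adjusted p = 4.87e-05) and on the second in EMD-/y (-1.23, SE 0.16, adjusted p = 0.000971). Its change in wildtype on the second day, -0.99 (SE 0.29, adjusted p = 0.0199), lay just under 2-fold, and in Δ95–99 it was 0.95 (SE 0.21, adjusted p = 0.00654), also under 2-fold.

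Tcf7l1 fell on the second day in wildtype (-1.36, SE 0.12), EMD-/y (-1.22, SE 0.13), +EMD (-1.02, SE 0.11), S54F (-1.44, SE 0.09) and Δ95–99 (-1.18, SE 0.10), with adjusted p from 2.12e-06 to 0.000529. The +EMD call was lost without library a or c of day 1 or library b of day 2 (-0.895 to -0.995). In Q133H the change was -0.76 (SE 0.14, adjusted p = 0.0179). Tcf7l2 fell in wildtype (-1.38, SE 0.11), EMD-/y (-1.34, SE 0.13) and S54F (-1.08, SE 0.15), with adjusted p from 6.15e-05 to 0.000465. The S54F call was lost without library b of day 2 (-0.98).

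Among the surface and secreted members, Fzd7 fell on the first day in +EMD (-1.05, SE 0.09, adjusted p = 7.14e-05) and S54F (-1.01, SE 0.11, adjusted p = 0.000344). Both were at the 2-fold limit: the first was lost without +EMD library b of day 1 (-0.98), the second without S54F library c of day 0 or a or c of day 1 (-0.92 to -0.98), and both with the closest pair averaged. Sfrp2 fell on the second day in S54F (-1.35, SE 0.27, adjusted p = 0.0023) and EMD-/y (-1.43, SE 0.41, adjusted p = 0.0204), the latter lost without EMD-/y library c of day 1 or b or c of day 2 (adjusted p from 0.0693 to 0.0709). It rose in Δ95–99 (1.69, SE 0.46, adjusted p = 0.0181), by 0.82 without the libraries that stand apart, among them the 19.6 CPM library of day 2. Ctnnb1 and Lrp6 were called in none of the 12 comparisons. From day 1 to day 2 Ctnnb1 moved by -0.36 in wildtype (SE 0.06, adjusted p = 0.00223) and 0.03 in Q133H (SE 0.09, adjusted p = 0.841), under 2-fold in each.

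**Figure D4:**
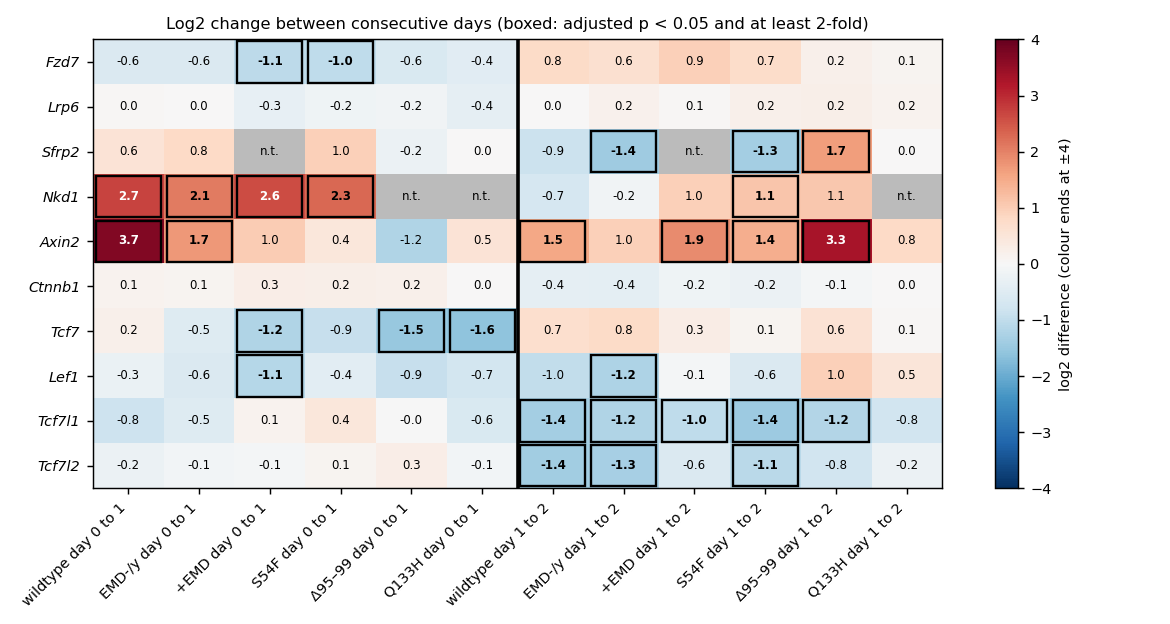
Log2 change of the 10 genes (rows) from day 0 to 1 and from day 1 to 2 in each line (columns), coloured from blue (fall) to red (rise). Boxes mark calls and n.t. genes not tested; Axin2 and Nkd1 are red in wildtype from day 0 to 1 (3.71 and 2.69), and Tcf7l1 is boxed in 5 of 6 lines from day 1 to 2.

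Whether a change between days differed from the wildtype change was tested directly in one model of 12 libraries for each line and step. From day 0 to day 1 the count of members that differed was 0 of 10 in EMD-/y, where 0.165% of all genes did. Among the transduced lines 2 differed with +EMD (8.24%), 3 with S54F (5.48%), 2 with Δ95–99 (11.4%) and 3 with Q133H (17.2%). From day 1 to day 2 none differed in EMD-/y (0.339%), 1 did with +EMD (9.12%), 0 with S54F (2.93%), 3 with Δ95–99 (11.1%) and 2 with Q133H (13.9%). In all, 16 of 100 differed (16%, against 7.99% of all genes), 7 upwards and 9 downwards. Of the 16, 14 stood with every library left out in turn, but with the closest pair averaged 5 did.

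The first-day change of Axin2 lay below that of wildtype by -2.69 (SE 0.71, adjusted p = 0.0182) in +EMD, -3.26 (SE 0.44, adjusted p = 0.000919) in S54F, -4.90 (SE 0.68, adjusted p = 0.000486) in Δ95–99 and -3.17 (SE 0.57, adjusted p = 0.00164) in Q133H. In Δ95–99 itself Axin2 went from a mean of 0.804 CPM on day 0 to 0.355 on day 1 (-1.21, SE 0.60, adjusted p = 0.133). In EMD-/y the difference was -1.96 (SE 0.60, adjusted p = 0.29), with an interval of ±2 SE from -3.15 to -0.76. With the closest pair averaged, the +EMD and S54F differences had adjusted p = 0.213 and 0.0777. The first-day change of Tcf7 lay below that of wildtype in the same 4 lines, by -1.37 (SE 0.27, adjusted p = 0.00497), -1.12 (SE 0.16, adjusted p = 0.00159), -1.72 (SE 0.32, adjusted p = 0.00225) and -1.82 (SE 0.23, adjusted p = 0.000254), of which +EMD and Δ95–99 had adjusted p = 0.0991 and 0.0745 with the closest pair averaged. In EMD-/y the Tcf7 difference was -0.67 (SE 0.23, adjusted p = 0.372), with an interval of ±2 SE from -1.14 to -0.21. The differences of each gene share the 6 wildtype libraries. On the second day the change of Fzd7 lay below that of wildtype by less than 2-fold in Δ95–99 (-0.58, SE 0.09, adjusted p = 0.000552) and Q133H (-0.65, SE 0.16, adjusted p = 0.0101).

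Beyond the 10 members, a list of 99 other genes of the pathway was followed, of which 97 had counts and 81 were tested at least once. Against wildtype 274 of 1094 gene and line comparisons were called, 25% against 15.2% of all genes, 103 higher and 171 lower. Between days the count was 190 of 848 (22.4% against 16.9%). A gene can stand in more than 1 class of the list. These counts include genes that passed the filter only through wildtype, such as Wnt10a, at a mean of 0.0193 CPM in S54F on day 0. Ligands and secretion genes were called most often against wildtype (47.5% of 162 comparisons), then secreted inhibitors (38.3% of 107), common targets (34.6%) and R-spondins with receptor turnover genes (33.7% of 83). The cytoplasmic relay (12.4% of 250) and the nuclear partners of beta-catenin (8.84% of 147) were called least. The median log2 difference of the listed genes was between -0.41 and 0.11 in the 15 comparisons, where that of all genes was between -0.01 and 0.00.

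Among the ligands, Wnt10a was lower than wildtype in all 15 comparisons. It was at 30.7 ± 6.90 CPM (SD, n = 3) in wildtype on day 2, 11.6 ± 2.11 in EMD-/y and 1.5 ± 0.394 in +EMD, and below 0.5 CPM in S54F, Δ95–99 and Q133H. Wnt6 was lower in 12 and Wnt4 in 9. Wnt5a, a ligand known mostly for signalling that does not use beta-catenin, was higher in 11, at 63.7 ± 23.5 CPM in Q133H on day 2 against 9.27 ± 2.46 in wildtype (2.48, SE 0.32, adjusted p = 0.000943). Porcn, the enzyme that acylates Wnts for secretion, rose on the second day in 5 of 6 lines and fell on the first in 3.

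Of the receptors, Fzd1 was lower in 14 of 15 comparisons, with 65.0 ± 5.70 CPM in wildtype on day 2 and 25.2 to 32.0 in the group means of the 5 lines. Fzd9 rose on the second day in 5 lines, and was at 34.6 ± 1.77 CPM in wildtype, 34.2 ± 0.793 in EMD-/y and 0.893 ± 0.441 in Q133H on day 2. The R-spondin Rspo3, which strengthens Wnt signals, was lower in 10 comparisons but higher in Δ95–99 on day 2 (1.05, SE 0.20, adjusted p = 0.00285). Lgr6, an R-spondin receptor, fell on the first day in 5 lines.

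Of the inhibitors, Dact1 was higher in 12 comparisons, at 2.79 ± 0.622 CPM in wildtype on day 2 against 17.5 ± 3.05 in EMD-/y (2.68, SE 0.19, adjusted p = 0.000124). Nkd2 was lower in 10 and Dkk3 in 9. Sfrp1, a relative of Sfrp2, did not follow it: it fell on the first day in 5 lines and on day 2 was lower in +EMD (-1.21, SE 0.25, adjusted p = 0.00441) but higher in Δ95–99 (1.94, SE 0.17, adjusted p = 5.81e-05) and Q133H (2.25, SE 0.36, adjusted p = 0.00215). Apcdd1 fell on the second day in 5 lines, and Apc2, a relative of the tumour suppressor Apc, rose on the first in 5.

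Of the common targets, Bmp4 was lower in 14 comparisons, at 10.9 ± 3.04 CPM in wildtype on day 0 and at most 0.702 in the means of the other lines. Fst, which encodes follistatin, was lower in 10, among them +EMD, S54F, Δ95–99 and Q133H on days 1 and 2. Ccnd1, cyclin D1, moved the other way from Axin2 on day 2: at 36.2 ± 10.2 CPM in wildtype, 107 ± 10.6 in S54F, 241 ± 18 in Δ95–99 and 503 ± 240 in Q133H (differences of 1.64, 2.6 and 3.43, adjusted p from 3.01e-05 to 0.000792), and Myc fell on the first day in 5 lines. Jup, the plakoglobin gene and a close relative of Ctnnb1, was listed not as a target but with the adherens junction partners of beta-catenin, and was lower in 10 comparisons. Of 90 comparisons of that class with wildtype, 14 were called lower and 0 higher.

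**Figure D5:**
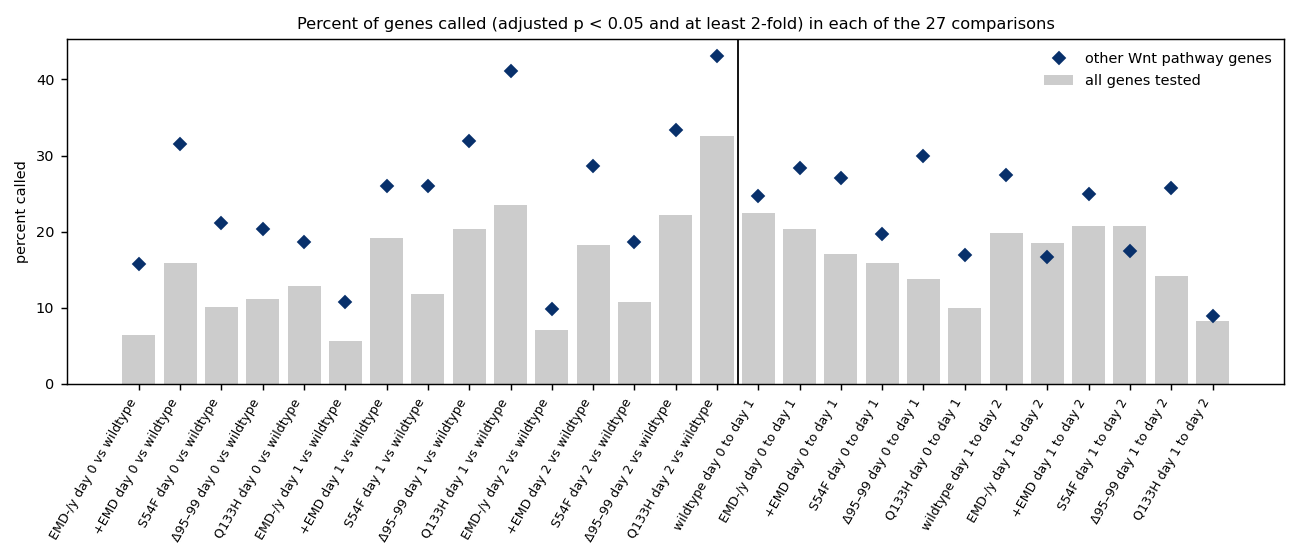
Percent of the other pathway genes called (diamonds) and of all genes tested (bars) in each of the 27 comparisons. Against wildtype the diamonds run from 9.86% to 43.1% and lie above the bar in all 15, which share wildtype libraries; between days they run from 8.96% to 30% and lie below the bar from day 1 to day 2 in EMD-/y (16.7% against 18.5%) and S54F (17.4% against 20.8%).

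The genes whose level followed a member most closely over the 18 group means were also named, for the 4 members of widest range. For Axin2 they were Myh7b (Pearson r = 0.945), Grin3b (0.941) and Snx32 (0.914), and for Tcf7 Hexdc (0.932), Pcbp4 (0.911) and Kif21b (0.909). For Lef1 they were Zfp462 (0.915), Odc1 (0.894) and Eloc (0.892), and for Sfrp2 Wdfy1 (0.878), Rora (0.873) and Zfp983 (0.860). These are the top 3 of 11895 genes each, over groups that share lines and days, and are descriptions only.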

How the data were processed

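Cells were sampled as described above, and BGI Genomics prepared poly-A libraries for the authors, read them in pairs (on the DNBseq platform per the labels, named BGISEQ-500 in the methods) and aligned them to mm10 with HISAT2, and groups were compared with DESeq2 (versions not given in the sources used here). Each of the 27 deposited tables holds 2 columns of signal, the authors' moderated normalized group values, beside their own fold changes, p-values and direction calls, which were not used. The tables hold 0 columns of per-sample values. The sum of the 2 columns is the sum over 6 libraries of each count divided by 3 times its size factor, and genes with a single read in all gave exactly 6 step sizes per table. Whole counts were solved from linked tables by lattice reduction (sympy 1.14.0, Python 3.11.15) for 19649 of 19653 genes, and not for Acta1, Eef1a1, Myh3 and 1 predicted gene. The 9 wildtype counts were the same from every set of tables for 18906 of 18906 genes, and size factors computed anew matched within 0.0307%. On simulated data 1500 of 1500 genes were recovered with the right counts, and none of 1500 was accepted once the sums were disturbed at the ninth digit.

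Counts divided by the size factors, plus 1, were fitted on the log2 scale with limma 3.58.1 (R 4.3.3) with a mean trend, on the 6 libraries of a comparison or, for differences of change, on 12 libraries with one size factor each. The plan had assumed that no test was possible from group values; the tests were chosen once the counts were found. On simulated counts for EMD-/y against wildtype on day 0 (13149 genes), 198 of 200 genes changed 3-fold were called, with 1 false call. For the first-day difference of change in EMD-/y (13543 genes) it was 189 of 200, with 5 false calls. The simulated libraries were independent, with the same dispersion for every gene and no close pair, so these rates cannot be carried over to the real groups. The members and lists were chosen with earlier results of these data known. Other pathway genes are named if called in one direction in at least 8 of 15 comparisons with wildtype or 3 of 6 lines between days, up to 20 of the 32 that met this. Lengths are the tables' own and the annotation is GENCODE vM21. Alternatives were another pseudocount, filter, scaling and fold threshold, voom weights, one fit over 54 libraries, leaving out libraries and averaging close pairs.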

Additional observations from a re-analysis of the deposited data

Results flagged for a closer look

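The change of a member between days was set against the wildtype change of the same days, over 100 member and line tests, and 16 passed. They are flagged because the test of the difference itself (limma, 12 libraries) was past the threshold. From day 0 to day 1 the change of Axin2 differed from that of wildtype by -2.69 in +EMD, -3.26 in S54F, -4.90 in Δ95–99 and -3.17 in Q133H on the log2 scale. That of Tcf7 differed by -1.37, -1.12, -1.72 and -1.82 in the same order. Nkd1 differed by -3.37 in Q133H, where its libraries held 1, 1 and 3 reads on day 0 and 2 reads in all on day 1. It passed the filter there only through wildtype on day 1. The wildtype change was 2.69, and a change within Q133H could not be tested, so -3.37 says little of Q133H itself. Tcf7l1 differed by 1.27 in S54F.

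From day 1 to day 2 the change of Sfrp2 in Δ95–99 differed by 2.51, or 1.33 without the libraries that stand apart. The change of Axin2 in Δ95–99 differed by 1.69, which was lost without any 1 of the 6 wildtype libraries, without library b or c of day 1 or without library a of day 2 (1.15 to 1.85, adjusted p from 0.0507 to 0.0915). Nkd1 in +EMD differed by 1.60, which was lost without library b or c of wildtype day 1, wildtype day 2 or +EMD day 1, or without library a or b of +EMD day 2 (1.3 to 1.63, adjusted p from 0.054 to 0.0671). Lef1 differed by 1.91 in Δ95–99 and 1.5 in Q133H, and Tcf7l2 by 1.17 in Q133H. With the closest pair of each group averaged, 5 of the 16 were still called.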

How the results depend on the processing

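No paired analysis was possible because the recovered libraries carry no replicate number, so no replicate block could be fitted. No log2 difference that was called changed direction under any alternative run. Averaging the closest pair of libraries, leaving out the library apart, voom weights and one fit over 54 libraries were chosen after seeing the data. With the closest pair averaged, which leaves 2 against 2, the members called were 0 in EMD-/y on day 0, 1 in S54F on day 0, 1 in EMD-/y on day 1, 0 in EMD-/y on day 2, and 0 in EMD-/y and 0 in S54F from day 0 to day 1. Of the differences of change they were, from day 0 to day 1, 0 in +EMD, 1 in S54F and 1 in Δ95–99, from day 1 to day 2 0 in +EMD, 0 in Δ95–99 and 0 in Q133H, and 5 in all against 16. Without the library apart the counts were 2 in Δ95–99 on day 0, 2 in EMD-/y on day 2, 2 in Δ95–99 and 2 in Q133H from day 0 to day 1 and 1 in +EMD from day 1 to day 2. For differences of change they were 1 in EMD-/y and 4 in +EMD on the first step and 2 in EMD-/y, 0 in +EMD and 2 in S54F on the second. Median centring gave 1 in S54F from day 0 to day 1, no filter and one fit over 54 libraries gave 2 each in Δ95–99 from day 0 to day 1, scaling by column sums gave 5 in wildtype from day 1 to day 2, and a 1.5-fold threshold gave 50 calls between days against 29. The cause of these shifts was not tested, except that averaging leaves fewer samples. Leaving out 1 library at a time, the counts against wildtype ranged from 2 to 3 in EMD-/y on days 0 and 1 and +EMD on day 1, 1 to 2 in Δ95–99 on day 0 and EMD-/y on day 2, and 3 to 4 in S54F on day 1. On day 2 they ranged from 4 to 6 in +EMD, 3 to 5 in S54F and Δ95–99 and 6 to 7 in Q133H. From day 0 to day 1 they ranged from 2 to 3 in wildtype, 0 to 2 in EMD-/y, 3 to 4 in +EMD, 1 to 3 in S54F and 1 to 2 in Δ95–99. From day 1 to day 2 they ranged from 3 to 6 in wildtype, 3 to 4 in EMD-/y and Δ95–99 and 1 to 4 in +EMD, and were 4 in S54F in place of 5 whichever library was left out. For differences of change the ranges were 2 to 4 in +EMD and 2 to 3 in Δ95–99 on the first step, and 0 to 1 in +EMD and S54F, 2 to 4 in Δ95–99 and 2 to 3 in Q133H on the second. The other counts did not move. On day 0 Nkd1 had too few reads for a test against wildtype in 4 of 5 lines.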

Other observations

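On day 0, as seen after the values were known, the library that stood apart had the lowest Tcf7l1, Tcf7l2 and Ctnnb1 of its group and the highest summed differentiation markers in 6 of 6 lines. In wildtype it was at 52.4 CPM of Tcf7l1 against 82.8 and 81.3, with a marker sum of 1359 CPM against 741 and 757. In EMD-/y it was at 58.3 against 80.8 and 77.6 CPM, with 2728 against 1119 and 1059, and in Q133H at 50.3 against 68.8 and 77.2 CPM, with 1539 against 242 and 255. The gaps in marker sum were smaller elsewhere: 1290 CPM against 1010 and 1042 in S54F, 654 against 577 and 543 in Δ95–99 and 909 against 829 and 834 in +EMD. Axin2 was highest in the library apart in 5 of 6 lines, with 3.01 CPM in EMD-/y against 1.2 and 1.28, and lowest in +EMD, at 0.116 against 0.554 and 0.684. The library apart was itself picked by count differences in these data, and the share of all genes with such an order was not counted.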
